A study of Mus musculus with 8 samples.

Results

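Cultured palatal mesenchyme of embryos labelled as conditional knockouts of the TGF-beta type II receptor was compared with that of controls. The enzymes that bring pyruvate into the mitochondrion's tricarboxylic acid (TCA) cycle, and the enzymes of the cycle itself, were followed. The set holds 30 genes, and all 30 were measured among 18193 genes in all. Members were chosen by name, as the subunits of the pyruvate dehydrogenase complex and its kinases, pyruvate carboxylase, the cycle enzymes and 1 malic enzyme. Each was represented by the brightest of its probe sets that carry exactly 1 gene symbol. A probe set is a group of short probes on the array that read 1 transcript.

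The mice were on the C57BL/6J strain. Mutant cells (4 arrays) came from Tgfbr2 fl/fl; Wnt1-Cre embryos and control cells (4 arrays) from Tgfbr2 fl/fl embryos, so both genotypes carried the floxed alleles and the titles' word "Wildtype" stands for floxed alleles without Cre. Palatal cells were taken at embryonic day 13.5 and RNA was extracted after 2 passages. Wnt1-Cre acts in cells derived from the neural crest, and other cell types in such a culture keep the receptor. Whether every array stands for its own embryo is not stated in the labels, and p-values here cover only variation among the deposited samples, some of which could be technical. The design text asks how disturbed TGF-beta signalling affects metabolism in palatal mesenchyme.

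Pyruvate made by glycolysis has several fates. The pyruvate dehydrogenase complex turns it into acetyl-CoA, which citrate synthase joins to oxaloacetate, and pyruvate carboxylase makes oxaloacetate from it directly. Pyruvate dehydrogenase kinases phosphorylate the complex and switch it off, which leaves more pyruvate for lactate. The cycle then oxidises citrate back to oxaloacetate and hands electrons to the respiratory chain, while citrate, 2-oxoglutarate and oxaloacetate also leave it as building blocks for lipids and amino acids.

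Some features of these cultures touch the results below. Tgfbr2 itself, read by a probe set whose place relative to the floxed segment is not given, differed by 0.37 (adjusted p = 0.538 in limma), which leaves the labels unchecked, and every direction rests on them. Macrophage and leukocyte markers were bright, with 16 of 17 brighter than the median probe set on each of the 8 arrays, and their mean ran from 10.95 to 13.20 in mutants and from 11.01 to 12.60 in controls. All 17 read higher on average in mutants, with a median difference of 0.74 and a difference of 0.84 between the means (12.62 ± 1.12 against 11.79 ± 0.81, SD, n = 4 each). Of 10 palatal mesenchyme markers 9 reached that level throughout (the exception was Osr2), against 2 of 5 epithelial and 1 of 5 endothelial markers. In bulk RNA, fewer cells of a type and less RNA per cell cannot be told apart. Mutant 4 stood apart from the other mutants: its values correlated at 0.992 with control 3 and at 0.976 to 0.981 with mutants 1 to 3. A spiked hybridisation control, bioB, was dim (6.34 to 6.52) for both genotypes' replicates 1 and 2, and brighter (8.24 to 8.79) for replicates 3 and 4. The 5′ minus 3′ reading of Gapdh, a sign of RNA integrity, lay between 0.06 and 0.16 on all arrays.

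Step by step along the cycle, differences between genotypes were small. The median difference over the 30 members, mutant minus control on the log2 scale, was -0.06, and over all genes it was -0.01. Over genes brighter than the median probe set, as 29 of the 30 members are, the median difference was -0.04. Differences ran from -0.71 for Pcx to 0.24 for Idh1, with 18 negative and 12 positive. Negative differences made up 60% of members, 51.7% of all genes and 57.3% of genes brighter than the median probe set. No member passed the limma test (0 of 30 at adjusted p 0.05, lowest adjusted p = 0.264), where 0.0879% of all genes passed, 0.066% lower and 0.022% higher. At an unadjusted p under 0.05, 3 members were lower (Pdhx, Pcx and Sucla2, 10% against 9.69% of all genes) and 1 was higher (Idh3b, 3.33% against 5.84%). Those shares are near the background, so the counts are not a result about these genes. For 24 of the 30 (80%) the 95% interval of the difference lay wholly within a 1.5-fold change in either direction (0.58 on the log2 scale). The share was 71.5% of all genes and 61.5% of genes brighter than the median probe set. The 6 members with wider intervals were Dld, Pdk1, Pdk4, Pcx, Idh1 and Idh2.

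**Figure D1:**
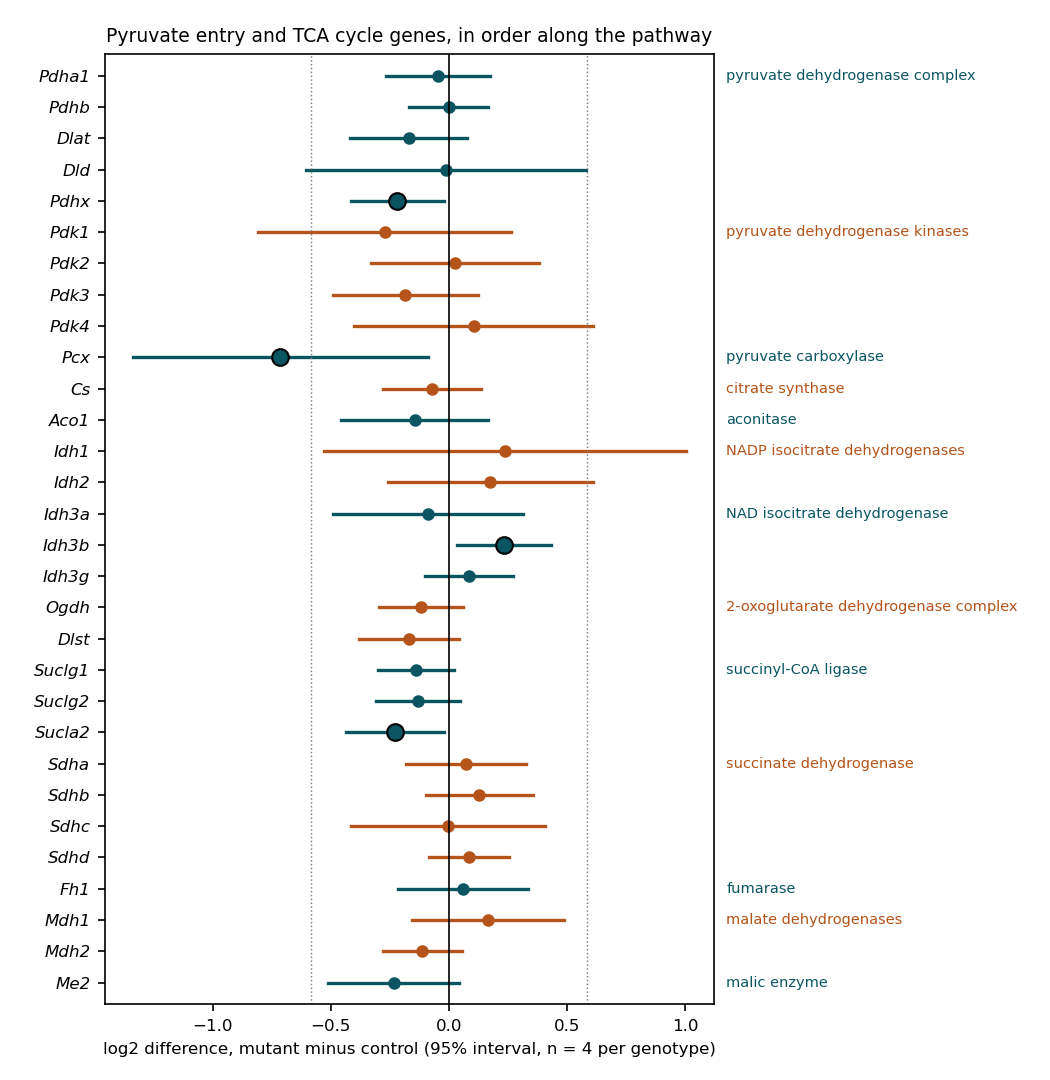
Log2 difference (mutant minus control) of each member with its 95% interval, in order along the pathway, 4 arrays per genotype. Colours alternate between steps, large outlined points have an unadjusted p under 0.05 and dotted lines mark a 1.5-fold change; 24 of 30 intervals lie between the dotted lines.

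The counts at unadjusted p moved with single arrays. Lower members numbered 0 without mutant 1 or mutant 3, 1 without mutant 2, control 1 or control 2, and 4 without mutant 4. Over all genes the lower share was 6.15% without mutant 1, 6.4% without mutant 3 and 14% without mutant 4, where 4 of 30 members is 13.3%. The count of higher members was 0 without mutant 1, 2 or 3 or without control 1 or 3, and 2 without mutant 4, while over all genes the higher share ran from 3.4% to 10.2%. With the macrophage marker mean as a term, Pdhx (-0.18, unadjusted p = 0.0887 in limma), Sucla2 (-0.16, 0.104) and Idh3b (0.18, 0.0729) missed the unadjusted threshold, as did Pcx. Without mutant 4, 1 member (Pcx) passed the threshold, in a fit where 7.23% of all genes did. The macrophage marker means left in that fit were 13.17 to 13.20 in mutants and 11.01 to 12.60 in controls, without overlap. Genotype and macrophage level cannot be told apart there. The median over members stayed between -0.11 and -0.04 in these fits.

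Pyruvate entry came first. The pyruvate dehydrogenase complex holds the E1 subunits Pdha1 and Pdhb, the E2 acetyltransferase Dlat, the E3 dehydrogenase Dld and Pdhx, which tethers E3 to the E2 core. Pdhx read 9.32, 9.42, 9.37 and 9.50 on mutants 1 to 4 and 9.61, 9.62, 9.47 and 9.78 on controls 1 to 4. Mutants 1 to 3 lay below every control, and mutant 4 lay just above control 3. The difference was -0.22 (SE 0.09, unadjusted p = 0.0347, adjusted p = 0.286 in limma). The E1 beta subunit gene Pdhb read 11.51, 11.58, 11.59 and 11.45 in mutants and 11.46, 11.47, 11.59 and 11.62 in controls, a difference of 0.000117 with a 95% interval from -0.17 to 0.17. A dimmer Pdhb probe set, with a mean of 7.27, differed by -0.16, so its probe sets do not share a sign. Pdha1 differed by -0.05 and Dlat by -0.17, and the other Dlat probe sets gave -0.19 and -0.20.

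Dld encodes a subunit common to the pyruvate and the 2-oxoglutarate complexes. Its array values are given because they followed the bioB reading, a choice made after they were seen. It read 11.02 and 11.01 on mutants 1 and 2 and 10.98 and 11.06 on controls 1 and 2. On mutants 3 and 4 it read 10.37 and 10.28, and on controls 3 and 4 10.11 and 10.57. The genotypes overlapped throughout, with a difference of -0.01 (95% interval -0.61 to 0.58). Low-bioB and high-bioB arrays did not overlap, which was also so for Idh1 and Pdk4 among the 30. The share of all genes split in this way was not computed, so the split cannot be read as particular to these genes. The part of hybridisation in these 3 patterns was not tested, and replicate number moves with it.

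The 4 pyruvate dehydrogenase kinases had no common sign, with 2 negative and 2 positive. Pdk1, the hypoxia-inducible kinase, read 11.70, 11.62, 11.08 and 11.50 in mutants and 12.19, 11.75, 11.94 and 11.11 in controls. Control 4 lay just above the lowest mutant and below the others, and the difference was -0.27 (SE 0.23, adjusted p = 0.608 in limma). Leaving out control 4 gave -0.48 (unadjusted p = 0.0248, adjusted p = 0.282 in limma). With each array left out in turn the difference ran from -0.48 to -0.13, and only that 1 fit had an unadjusted p under 0.05. The 2 further bright probe sets of Pdk1 gave -0.23 and -0.44. Pdk3 differed by -0.18.

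Pdk4, the kinase induced by fasting and fatty acid use, read 8.47, 8.52, 8.92 and 8.97 in mutants and 8.48, 8.07, 8.98 and 8.94 in controls. Its difference was 0.11 (95% interval -0.40 to 0.61), and in both genotypes replicates 3 and 4 read above replicates 1 and 2. Pdk2 had the dimmest probe set of the members and the one mean below the median probe set of 6.94. It read 6.53, 6.68, 6.95 and 7.13 in mutants and 6.70, 6.73, 7.10 and 6.65 in controls, with a difference of 0.03.

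Pcx had the largest difference of the 30. It encodes pyruvate carboxylase, which refills the cycle with oxaloacetate. It read 8.25, 8.59, 8.59 and 9.48 on mutants 1 to 4 and 9.63, 9.31, 9.80 and 9.03 on controls 1 to 4. Mutants 1 to 3 lay below every control, and mutant 4 lay above controls 2 and 4. The means were 8.73 ± 0.53 in mutants and 9.44 ± 0.34 in controls (SD, n = 4 each), a difference of -0.71, or 1.64-fold lower in mutants. It had SE 0.27, a 95% interval from -1.34 to -0.09 and adjusted p = 0.275 in limma. Without mutant 4 the difference was -0.97 (adjusted p = 0.0308 in limma). In that fit 7.23% of all genes passed, and the macrophage marker means of the genotypes did not overlap. The Pcx difference was -1.05 on the low-bioB arrays and -0.38 on the high-bioB arrays. With a term for the macrophage markers it was -0.48 (unadjusted p = 0.0878 in limma).

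The array also carries Pcx among its control probe sets, which lie along the transcript. The control at the 3′ part differed by -0.48 (SE 0.24, unadjusted p = 0.0763 in limma), from 9.38 ± 0.35 in controls to 8.90 ± 0.42 in mutants (SD, n = 4 each). The controls at the 5′ part and the middle were dimmer and differed by 0.05, 0.14 and -0.07. At the 3′ control too, mutants 1 to 3 lay below every control array and mutant 4 lay among the controls. The 5′ and middle controls had means of 8.08, 7.78 and 6.895, and whether they detect a change of Pcx was not tested. Had array controls been kept, the 3′ control would have been the brightest Pcx probe set, and 2 members in place of 3 would have been lower at unadjusted p.

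**Figure D2:**
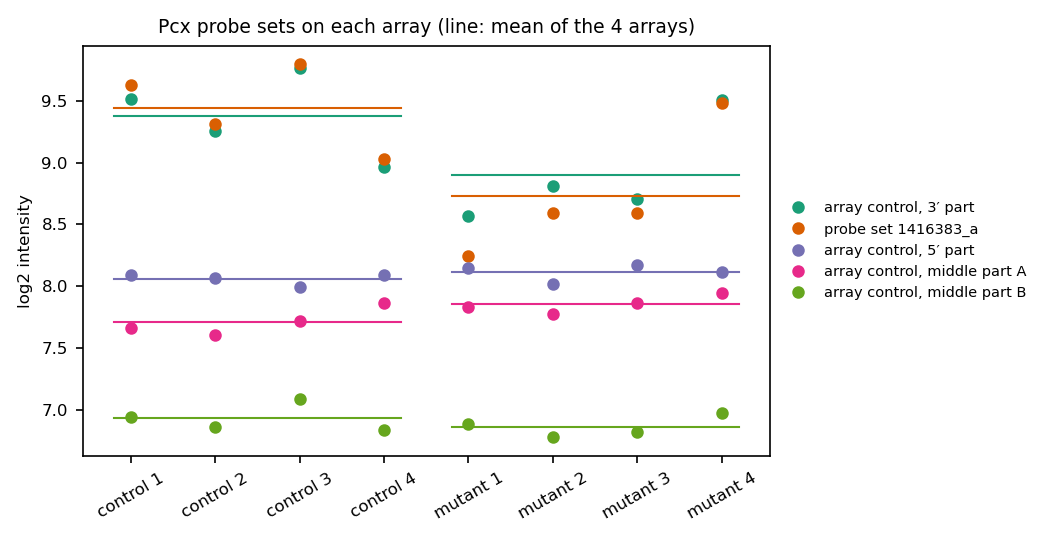
Log2 intensity of the 5 Pcx probe sets on each of the 8 arrays, with lines at the mean of each genotype. The gene's own probe set and the 3′ array control read lower on mutants 1 to 3 (8.25 to 8.81) than on every control, while the 5′ and middle controls differ between genotypes by -0.07 to 0.14.

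Entry into the cycle and its first steps came next. Cs, which encodes citrate synthase, differed by -0.07 (95% interval -0.28 to 0.14). Aco1, the cytosolic aconitase that doubles as iron regulatory protein, differed by -0.14. Idh3a, Idh3b and Idh3g encode the NAD-linked isocitrate dehydrogenase that drives the cycle forward. Idh3b read 12.42, 12.42, 12.51 and 12.20 in mutants and 12.06, 12.21, 12.13 and 12.21 in controls. Mutants 1 to 3 lay above every control and mutant 4 among them. Idh3b differed by 0.23 (SE 0.09, unadjusted p = 0.0253, adjusted p = 0.264 in limma), 1.18-fold higher in mutants, and by 0.30 without mutant 4.

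The catalytic subunit gene Idh3a did not follow Idh3b. It read 11.60, 11.62, 11.52 and 11.66 in mutants and 11.65, 11.65, 11.26 and 12.20 in controls, a difference of -0.09. Its further probe sets gave -0.13, -0.28 and 0.12, all of them dimmer. Idh3g, a regulatory subunit, differed by 0.09.

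Idh1 and Idh2 make NADPH from isocitrate in the cytosol and the mitochondrion. Idh1 read 13.14, 13.09, 12.80 and 11.97 in mutants and 12.91, 12.98, 12.40 and 11.77 in controls. The 3 lowest arrays, mutant 4 and controls 3 and 4, were also the 3 with the lowest macrophage marker means (10.95, 11.16 and 11.01). The difference of Idh1 was 0.24 (95% interval -0.53 to 1.01), and adjusting for the macrophage markers gave -0.20. Idh2 read 11.04, 11.26, 11.25 and 10.90 in mutants and 11.22, 11.31, 10.69 and 10.52 in controls, with the same 3 arrays lowest. Its difference was 0.18, and -0.03 with the same adjustment.

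**Figure D3:**
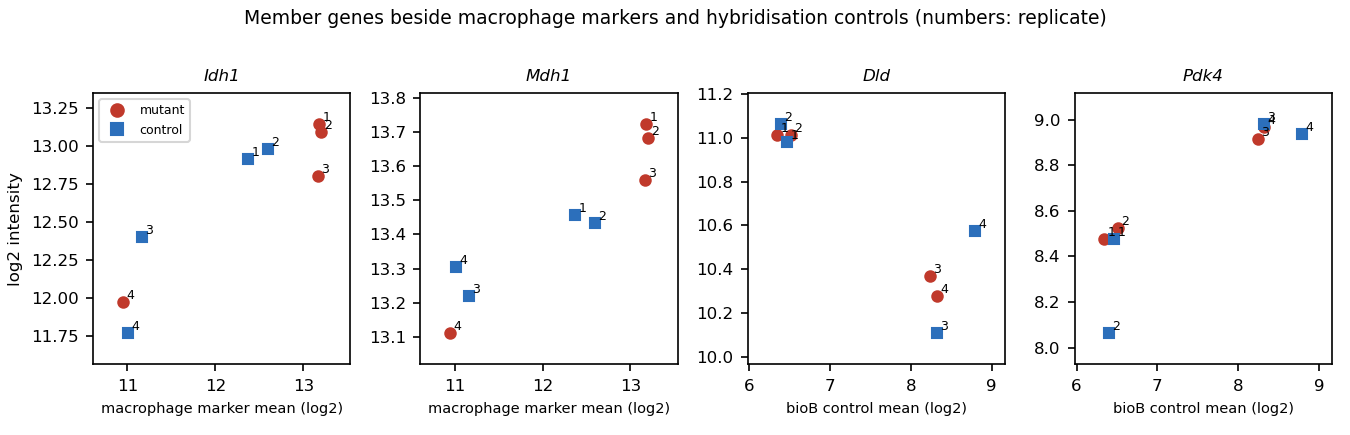
Log2 intensity of Idh1 and Mdh1 against the mean of 17 macrophage markers, and of Dld and Pdk4 against the bioB hybridisation control, 1 point per array. Mutant 4 and controls 3 and 4 are lowest in Idh1 and in the macrophage mean; in Dld and Pdk4 replicates 1 and 2 lie apart from replicates 3 and 4.

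Next in the cycle, Ogdh and Dlst, the E1 and E2 subunits of the 2-oxoglutarate dehydrogenase complex, differed by -0.12 and -0.17. With the probe sets of a gene averaged, Dlst differed by 0.01. All 3 subunits of succinyl-CoA ligase, the step that makes ATP or GTP, were negative, as were 57.3% of genes brighter than the median probe set. Sucla2, the ATP-forming subunit, read 11.82, 12.004, 11.87 and 12.11 in mutants and 12.04, 12.25, 12.19 and 12.23 in controls. Control 1 fell among the mutants and the other controls lay above them all. The difference was -0.23 (SE 0.09, unadjusted p = 0.0355, adjusted p = 0.289 in limma). Over 21 alternatives the difference of Sucla2 ran from -0.28 to -0.04, and 11 of them gave an unadjusted p under 0.05 in limma.

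Suclg1, the alpha subunit common to both forms of the ligase, read 12.06, 12.04, 12.07 and 11.96 in mutants and 12.16, 12.13, 12.28 and 12.12 in controls. It was the only member whose genotypes did not overlap (1 of 30 lower, against 5.18% of all genes, and 0 of 30 higher, against 2.89%). Its difference was -0.14 (SE 0.07, adjusted p = 0.374 in limma), 1.10-fold lower in mutants, and its 95% interval ran from -0.30 to 0.02. Suclg2, the GTP-forming subunit, differed by -0.13.

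**Figure D4:**
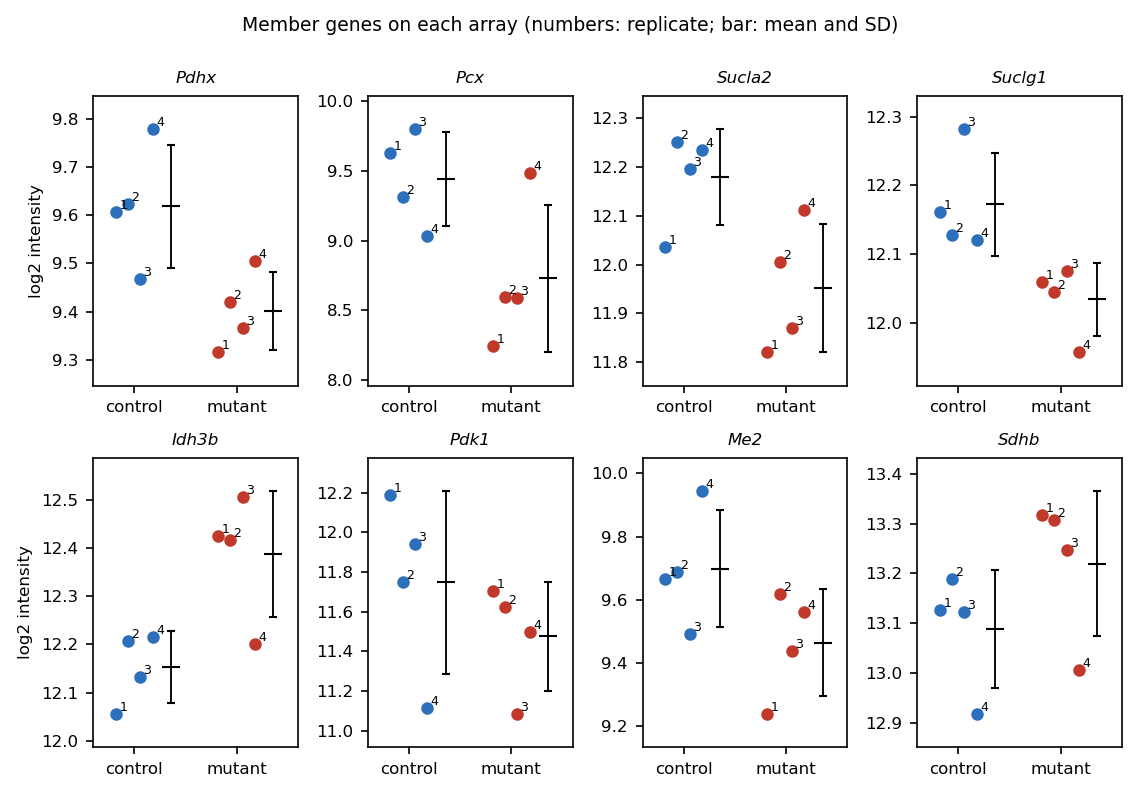
Log2 intensity of 8 members on each array, with the replicate number beside each point and the mean and SD (n = 4) as bars; each panel has its own scale. Suclg1 is the panel in which the genotypes do not overlap, and in Pcx, Idh3b and Sdhb mutant 4 lies away from mutants 1 to 3.

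Succinate dehydrogenase, which is also complex II of the respiratory chain, had 3 positive differences and 1 near 0. Sdhb, its iron-sulfur subunit, read 13.32, 13.31, 13.25 and 13.01 in mutants and 13.13, 13.19, 13.12 and 12.92 in controls. Mutants 1 to 3 lay above every control and mutant 4 below all but control 4, and the difference was 0.13 (95% interval -0.09 to 0.35). The membrane anchor gene Sdhc read 11.53, 11.50, 11.93 and 11.80 in mutants and 11.56, 11.56, 12.20 and 11.46 in controls, a difference of -0.0025. The flavoprotein gene Sdha and the second anchor gene Sdhd differed by 0.07 and 0.09, and all 4 intervals lay within a 1.5-fold change. Adjusted for the macrophage markers, Sdha differed by -0.04, Sdhb by 0.03, Sdhc by 0.08 and Sdhd by 0.05.

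The last steps showed no common direction. Fh1, fumarase, differed by 0.06, and by -0.04 with that adjustment. Mdh2, the mitochondrial malate dehydrogenase, read 13.81, 13.82, 13.70 and 13.72 in mutants and 13.83, 13.81, 13.86 and 14.00 in controls, a difference of -0.11 (95% interval -0.28 to 0.05). Mdh1, its cytosolic partner in the malate-aspartate shuttle, read 13.72, 13.68, 13.56 and 13.11 in mutants and 13.46, 13.43, 13.22 and 13.30 in controls. Mutant 4 was the lowest of all arrays, while the other mutants lay above every control. The difference of Mdh1 was 0.17, and it was 0.30 without mutant 4 (unadjusted p = 0.0116 in limma) and -0.00368 after adjusting for the macrophage markers. Me2, the mitochondrial malic enzyme that returns malate to pyruvate, read 9.24, 9.62, 9.44 and 9.56 in mutants and 9.67, 9.69, 9.49 and 9.94 in controls. The difference was -0.23 (SE 0.12, adjusted p = 0.387 in limma), with mutants 2 and 4 above control 3, and probe sets with means of 9.24 and 7.76 gave -0.26 and -0.16.

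Most members were read by more than 1 probe set. The 40 further probe sets covered 22 members, and 29 had the sign of the one used. Among the 27 above the median probe set 24 shared the sign, with Pdhb, Idh3a and Sdhc the exceptions. Among the 13 below it 5 did. The probe sets used for Dlat, Aco1 and Mdh1 are of the type marked x, whose probes may bind related transcripts. Those used for Idh1, Idh3b and Suclg2 are of the type marked s, which match several transcripts, so the source is less certain for all 6.

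The promoters of 27 members were found in the RefSeq table for GRCm38.p6, and the 250 bases before 36 annotated starts were searched on both strands for 5 motifs. The motifs were CCGGAAG (ETS factors), GCATGCGC (NRF1), GGGCGG (GC box), AAGGTCA (the ERR element) and ACGTG (the core of the hypoxia response element). A CACGTG counts as 2 overlapping matches of ACGTG. The GC box lay in 20 of the 36 windows (32.7% of all 32851 windows), ACGTG in 13 (16.6%), NRF1 in 3 (2.26%), ETS in 2 (6.91%) and the ERR element in 0 (4.08%). Ogdh gives 6 of the 36, which overlap in part, and these hold 6 of the 13 windows with ACGTG and 2 of the 3 with NRF1. Counted by gene, ACGTG lay in 8 of 27 members (29.6%, against 18.5% of all genes), the GC box in 18 (66.7% against 35.4%), NRF1 in 2 (7.41% against 2.56%) and ETS in 2 (7.41% against 7.83%).

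Windows of 3 of the 4 members at unadjusted p under 0.05 are printed as examples. They were picked by p-values that did not pass adjustment, so no link between motifs and direction can be read from them. The fourth, Pdhx, is left out because its window also lies in the neighbouring gene Apip. Capitals mark matches of any of the 5 motifs, and each window ends at the base before the start. Pcx (the first of its 2 annotated starts, chr19:4510222-4510471, plus strand), Sucla2 (chr14:73552536-73552785, plus strand) and Idh3b (chr2:130284452-130284701, minus strand) follow.
Pcx: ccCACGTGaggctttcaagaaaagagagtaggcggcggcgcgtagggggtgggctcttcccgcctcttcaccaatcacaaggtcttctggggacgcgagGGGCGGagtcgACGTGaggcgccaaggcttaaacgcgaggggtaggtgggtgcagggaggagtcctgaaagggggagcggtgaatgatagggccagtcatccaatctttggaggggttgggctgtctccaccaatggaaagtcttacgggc
Sucla2: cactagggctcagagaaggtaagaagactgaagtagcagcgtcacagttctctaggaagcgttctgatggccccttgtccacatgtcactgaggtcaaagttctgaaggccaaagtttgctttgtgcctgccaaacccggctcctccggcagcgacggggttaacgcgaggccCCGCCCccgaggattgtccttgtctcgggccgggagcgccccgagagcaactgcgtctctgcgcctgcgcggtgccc
Idh3b: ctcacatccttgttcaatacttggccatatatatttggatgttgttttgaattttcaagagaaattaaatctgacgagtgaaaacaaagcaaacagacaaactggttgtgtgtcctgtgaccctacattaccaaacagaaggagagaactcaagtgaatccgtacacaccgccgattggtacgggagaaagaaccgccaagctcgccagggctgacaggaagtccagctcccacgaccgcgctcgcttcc
The printed Pcx window holds a CACGTG beginning 248 bases before the start, a GC box beginning at 151 and an ACGTG at 140. The window before the second Pcx start holds none of the 5 motifs, and which start these cells use was not tested. The Sucla2 window holds 1 GC box, beginning at 77, and the Idh3b window holds none of the 5 motifs. The windows of Pdha1, Dld and Suclg1, with negative differences, and of Pdk4, with a positive one, hold none either. A relation of motifs to direction was not tested.

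Genes around the cycle were taken from a list of 38, of which 32 were measured. They cover pyruvate and lactate transport, lactate dehydrogenases, the phosphatases that reactivate pyruvate dehydrogenase, lipoate synthesis, assembly of succinate dehydrogenase, other malic enzymes, glutamine entry, citrate export and mitochondrial carriers. Their median difference was -0.04. None passed the limma test (0 of 32, lowest adjusted p = 0.161), while 6 were lower at an unadjusted p under 0.05 (18.8% against 9.69% of all genes) and 1 was higher (3.12% against 5.84%). Genotypes did not overlap for 4 of them, all lower (12.5% against 5.18%). These shares rise with brightness, and 29 of the 32 are brighter than the median probe set. Of all genes that bright, 13.5% were lower at unadjusted p, 6.89% were higher and 6.97% were lower without overlap. Without mutant 4, 5 of the 32 passed, in the fit where 7.23% of all genes did and where the macrophage marker means of the genotypes did not overlap.

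Me1, the cytosolic malic enzyme that supplies NADPH, had the smallest p. It read 10.76, 10.86, 10.56 and 11.12 in mutants and 11.53, 11.39, 11.29 and 11.54 in controls, without overlap. The difference was -0.61 (SE 0.13, adjusted p = 0.161 in limma), 1.53-fold lower in mutants, and without mutant 4 it was -0.71 (adjusted p = 0.0186 in limma).

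The subunit genes of succinate dehydrogenase had differences from -0.0025 to 0.13, as above, while 2 of its 4 assembly factor genes had negative differences and did not overlap. Sdhaf1 read 9.45, 9.52, 9.54 and 9.64 in mutants and 9.79, 9.83, 10.00 and 10.04 in controls, a difference of -0.38 (SE 0.08, adjusted p = 0.187 in limma). Sdhaf3 read 9.35, 9.33, 9.43 and 9.16 against 9.47, 9.54, 9.61 and 9.67, a difference of -0.26 (adjusted p = 0.225 in limma). Sdhaf2 and Sdhaf4 differed by 0.14 and 0.13. Sdhaf1 and Sdhaf3 help insert the iron-sulfur clusters of Sdhb.

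The 3 genes that make and attach lipoate, the cofactor of Dlat and Dlst, were all negative, as were 57.3% of genes brighter than the median probe set. Lipt2, a lipoyl transferase, read 8.96, 8.89, 9.003 and 8.77 in mutants and 9.13, 9.13, 9.08 and 9.10 in controls, without overlap and with a difference of -0.21 (adjusted p = 0.256 in limma). The lipoyl synthase gene Lias and the transferase gene Lipt1 differed by -0.16 and -0.29.

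At the lactate branch, Slc16a3, the lactate exporter MCT4, read 7.04, 7.30, 6.97 and 7.97 in mutants and 8.21, 8.001, 8.47 and 7.68 in controls. Mutant 4 fell among the controls, and the difference was -0.77 (SE 0.25, adjusted p = 0.223 in limma), or -0.99 without mutant 4 (adjusted p = 0.0280 in limma). Ldha, which favours lactate, read 13.65, 13.77 and 13.63 on mutants 1 to 3, 14.15 on mutant 4 and 14.09 to 14.18 on controls, a difference of -0.33 (adjusted p = 0.261 in limma), or -0.45 without mutant 4 (adjusted p = 0.0224 in limma). In the fit without mutant 4, 7.23% of all genes passed, and the macrophage marker means of the genotypes did not overlap. Ldhb, the form typical of oxidative tissue, read 11.88, 12.10, 12.21 and 12.75 in mutants and 11.56, 11.46, 11.92 and 11.79 in controls. Mutant 1 lay just below control 3, and Ldhb differed by 0.55 (SE 0.19, adjusted p = 0.244 in limma). Adjusted for the macrophage markers, Ldhb differed by 0.79 (adjusted p = 0.0349 in limma), while the same fit gave -0.21 for Ldha and -0.57 for Slc16a3, with adjusted p above the threshold.

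**Figure D5:**
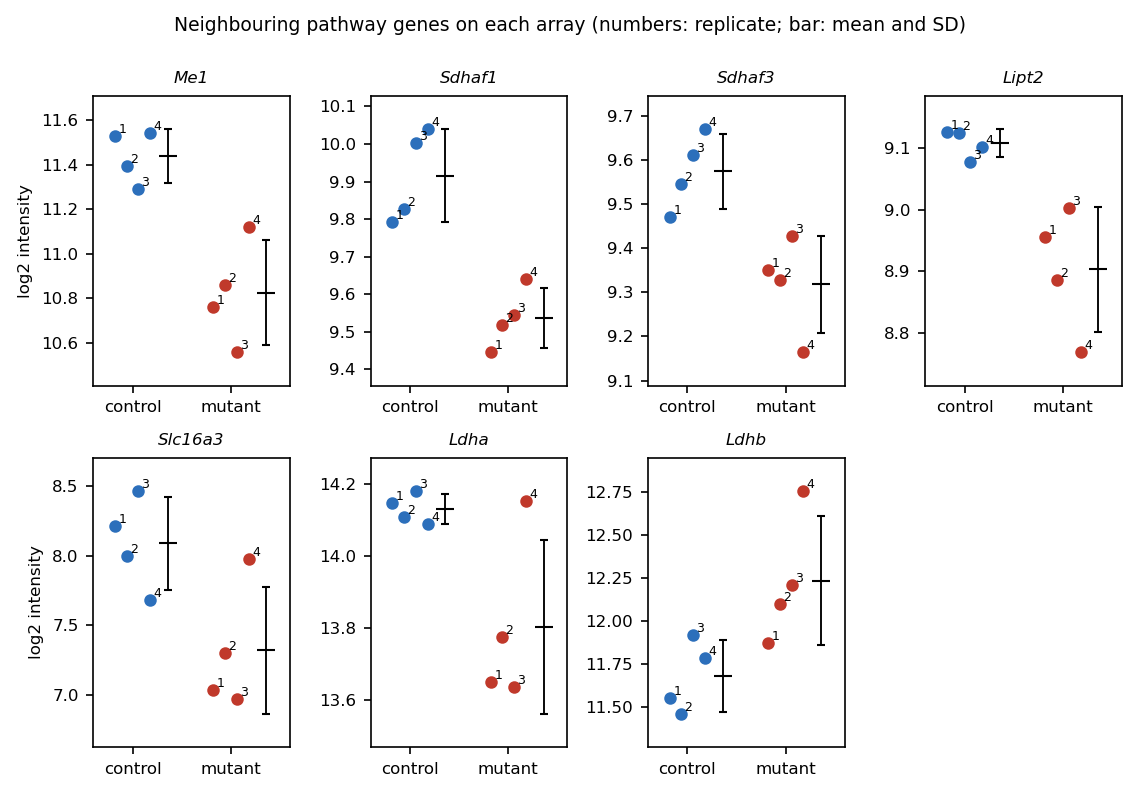
Log2 intensity of the 7 neighbouring pathway genes with an unadjusted p under 0.05 on each array, with replicate numbers and the mean and SD (n = 4) as bars; each panel has its own scale. The genotypes do not overlap in Me1, Sdhaf1, Sdhaf3 and Lipt2, and in Ldha and Slc16a3 mutant 4 lies among the controls.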

How the data were processed

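RNA of 8 samples (4 mutant, 4 control) of cultured cells was hybridised to Affymetrix mouse arrays. The authors deposited log2 intensities, 1 per probe set and array, made with RMA per the submitters' processing notes (version: not given in the sources used here). Deposited intensities lay between 3.21 and 15.18 and were used unchanged, so probe-level steps were not re-examined. Of 45101 probe sets, 34945 had 1 gene symbol and 64 were array controls, which were left out (4 of these read Pcx). Symbols were updated by Entrez identifier, which matched 34741.

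Each gene kept its brightest probe set. The genotype contrast was estimated for 18193 genes by limma 3.58.1 (R 4.3.3; lmFit and eBayes, two-sided, no covariate), with Benjamini-Hochberg adjustment over all and a threshold of 0.05. SE values and 95% intervals are limma's moderated ones. The fit was tested on simulated data. The number of arrays limits the precision.

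The members, the neighbouring genes and the alternatives were chosen with earlier results of these data known; keeping array controls was added after seeing the data. Named members were those at unadjusted p under 0.05, without overlap, with the 3 largest differences either way, with the 3 brightest or dimmest probe sets, or with bright probe sets of unlike sign. Alternatives covered normalization, probe set choice, dim genes, variance model, array weights, batches, the macrophage covariate, thresholds and each array left out.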

Additional observations from a re-analysis of the deposited data

Results flagged for a closer look

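Among 60 groups of 4 arrays (30 members in 2 genotypes), 2 held an array far from the other 3 by Dixon's gap rule, where chance gives about 3. The citrate synthase gene Cs read 12.46 on control 4, and the next highest control read 12.28. The succinate dehydrogenase anchor gene Sdhc read 12.20 on control 3, and the next highest control read 11.56.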

How the results depend on the processing

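The median difference over members moved by less than the spread between replicates (0.06) in all alternatives. Of 629 member differences under 21 alternatives 580 kept their sign and 49 changed it, 0 of them among the 4 members at unadjusted p under 0.05, and 16 of 30 members kept their sign throughout. Array weights gave 2 members past the threshold, 5 other pathway genes and 1470 genes in all (8.08%). They gave 6 members lower at unadjusted p, where 16.4% of all genes were. Low-bioB arrays alone gave 1 member past the threshold, 6 other pathway genes and 2085 genes in all (11.5%). In that fit 2 members were higher at unadjusted p, against 11.3% of all genes. High-bioB arrays alone gave 0 lower (3.52% of all genes), 0 higher (1.68%) and 0 genes in all past the threshold. With the macrophage covariate 1 member (Aco1, unadjusted p = 0.0329 in limma) was lower, against 9.6% of all genes. In the same fit 0 members were higher (8.29% of all genes), and 1 other pathway gene and 59 genes in all passed. Pdhx, Pcx, Sucla2 and Idh3b all missed the unadjusted threshold in that fit. Quantile normalization left 1 member lower (7.99% of all genes) and averaged probe sets 0 higher (5.93%). An unadjusted p of 0.01 gave 0 lower and 0 higher. An adjusted p of 0.10 gave 41 genes in all. A split of the arrays by the spiked poly-A controls for labelling, used as a block, gave 2. With 1 array left out, members past the threshold ran from 0 to 1, lower members from 0 to 4, higher members from 0 to 2, other pathway genes past it from 0 to 5 and all genes from 0 to 1316. With the replicate number as a block 2 members were higher, against 8.55% of all genes, and 0 genes passed in all. Same-numbered arrays deviated together for numbers 1, 2 and 4 (0.47, 0.42 and 0.37) but not 3 (-0.09), and 2 of 8 arrays correlated best with their own number, so the numbers were not taken to pair the samples. The number of arrays limits the precision, as the printed intervals show.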

Other observations

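Of the 40 further probe sets of members, 3 had an unadjusted p under 0.05 in limma where the one used did not. That is 7.5%, and 14.5% of all 34958 probe sets with 1 symbol (array controls included) reached it in the same fit. A second Mdh1 probe set (mean 12.79) differed by 0.30, with unadjusted p = 0.0272 in limma. A second Aco1 probe set (mean 9.59) differed by -0.28, with unadjusted p = 0.0378 in limma. A Dlst probe set with a mean of 6.45, below the median probe set, differed by 0.39 (unadjusted p = 0.0123 in limma), opposite in sign to the brightest one. None passed after adjustment over all probe sets.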
